A study of Mus musculus with 6 samples.

Results

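JAK kinases and STAT factors form the relay that carries cytokine and interferon signals from the cell surface to the nucleus. A ligand brings receptor chains and their bound JAK kinases together, the kinases phosphorylate a STAT on a tyrosine, and paired STATs enter the nucleus and bind DNA. Type I interferon acts through JAK1 and TYK2, and STAT2 joins the DNA-binding factor IRF9 in a complex called ISGF3, which binds the interferon-stimulated response element (ISRE) of antiviral genes. STAT3 serves the interleukin-6 and LIF family of cytokines, which in the brain act on astrocytes as well as neurons, STAT5A and STAT5B serve growth hormone and prolactin, STAT6 serves interleukin-4, and JAK2 is shared by many receptors.

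The 9 genes described here are Stat2, Stat3, Stat5a, Stat5b, Stat6, Irf9, Jak1, Jak2 and Tyk2, found by symbol among the 38293 rows of the count table. Of these, 8 passed the low-count filter, as did 14642 genes in all, and Stat5a did not. The set was chosen by the NMDA against control difference of Stat2, which falls, so the values of Stat2 are a description without a test. The other 8 were taken as family members and partners with earlier results of these data known. Stat4 and Jak3 are among the genes set beside them. All 6 libraries came from wild-type Swiss-Webster mouse primary cortical neurons taken at embryonic day 16 and kept until day 13 in vitro. The 3 control libraries had no treatment, and the 3 NMDA libraries received 50 µM NMDA, an agonist of one class of glutamate receptor, for 10 minutes and then 50 minutes in medium without the drug. The growth protocol shared by all samples also mentions etoposide, but no library here is labelled with it. Nothing in the labels says what a replicate number stands for, and the extract protocol speaks of 2 biological replicates, so a p-value here reflects spread among 6 libraries that may be technical.

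Library totals ranged from 15417234 to 19183999 counts. All 7 activity-induced genes used as a check (Fos, Fosb, Npas4, Arc, Egr1, Nr4a1 and Junb) were called higher. This is the edgeR fit with group as the only term (adjusted p under 0.05), which called 0.376% of all tested genes higher. The cultures were not pure. All 15 neuron markers were tested, with a summed level of 5313 to 5925 CPM (read count relative to the TMM-scaled library size) in control and 5169 to 5834 CPM in NMDA libraries, and 11 of 12 astrocyte markers were tested, at 2693 to 3671 and 2987 to 4569 CPM (two-sided exact permutation p = 0.3). Microglia markers summed to 15.2 to 15.8 and 10.8 to 19.1 CPM, with Tmem119 and Itgam at 0 in at least 1 library. Oligodendrocyte markers were highest in both replicate 1 libraries, with 1079 CPM for control and 1047 CPM for NMDA, while the lowest library was at 542.5 CPM in control and at 660.5 CPM in NMDA. In bulk samples, fewer cells of a type and less RNA per cell cannot be told apart.

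The promoters of Stat2, Tyk2 and Stat3 are shown first, since these are the members called in some of the fits below. Tyk2 and Stat3 were not called in the edgeR fit with group as the only term. Irf9 also lay wholly below the controls, but was called in no fit. Each run is the 250 bases before the start site given by RefSeq on GRCm38.p6, written 5′ to 3′ in the gene's own direction. Capitals mark a match to one of the motifs searched on both strands: an ISRE-like pattern of GAAA, any 2 bases and GAAA again, the STAT site TTCNNNGAA, the cAMP response element TGACGTCA, the AP-1 site TGANTCA and the E-box CACGTG.
Stat2, chr10:128270248-128270497, plus strand: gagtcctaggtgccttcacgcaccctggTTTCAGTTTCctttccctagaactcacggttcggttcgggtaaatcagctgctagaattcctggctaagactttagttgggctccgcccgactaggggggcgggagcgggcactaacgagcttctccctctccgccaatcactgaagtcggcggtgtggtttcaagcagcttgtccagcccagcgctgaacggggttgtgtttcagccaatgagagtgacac
Tyk2, chr9:21131276-21131525, minus strand: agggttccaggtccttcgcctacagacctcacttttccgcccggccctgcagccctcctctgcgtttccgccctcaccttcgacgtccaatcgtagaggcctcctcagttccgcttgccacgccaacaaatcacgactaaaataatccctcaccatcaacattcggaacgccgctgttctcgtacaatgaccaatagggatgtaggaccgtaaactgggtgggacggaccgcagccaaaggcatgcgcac
Stat3, chr11:100939541-100939790, minus strand: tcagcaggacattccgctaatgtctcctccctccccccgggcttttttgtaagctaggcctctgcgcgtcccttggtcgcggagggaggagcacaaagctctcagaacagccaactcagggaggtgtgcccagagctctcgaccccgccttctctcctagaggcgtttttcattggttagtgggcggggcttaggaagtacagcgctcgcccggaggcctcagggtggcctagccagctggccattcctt

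Stat2 carries 1 ISRE-like match, which begins 222 bases before its start site and reads on the opposite strand. Such a match is in 2.98% of 32536 distinct windows of the same length. The Tyk2 and Stat3 windows hold none of these letters, so they are printed without capitals. The table had 12 windows for the 9 genes, at least 1 for each, and the only other match among them was a cAMP response element in the Jak1 window, 101 bases before the start site, a motif found in 1.56% of windows. The STAT site is in 7.04%, the AP-1 site in 6.73% and the E-box in 6.04% of windows.

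Stat2, the ISGF3 subunit that supplies its activation domain, was lower in every NMDA library. Its level was 33.2, 32.3 and 34.9 CPM in control replicates 1, 2 and 3 and 22.2, 18.2 and 18.1 CPM in NMDA replicates 1, 2 and 3. The groups were far apart compared with their spread, and NMDA replicates 2 and 3 lay below NMDA replicate 1. The edgeR log2 difference was -0.78 ± 0.11 (SE), a level 0.581 times that of control. In pairs of the same replicate number it was -0.58, -0.83 and -0.94. On GRCm38 Stat2 (ENSMUSG00000040033) lies on chromosome 10 from 128270559 to 128292849, with no annotated gene overlapping it. Its nearest tested neighbours were Timeless and Spryd4 on one side, at -0.03 ± 0.17 and 0.17 ± 0.17, and Pan2 and Cnpy2 on the other, at -0.32 ± 0.18 and -0.01 ± 0.10. None of the 4 passed without the replicate block. Pan2, a subunit of an enzyme that shortens poly(A) tails, passed in the paired fit (-0.32 ± 0.09, adjusted p = 0.0168).

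**Figure D1:**
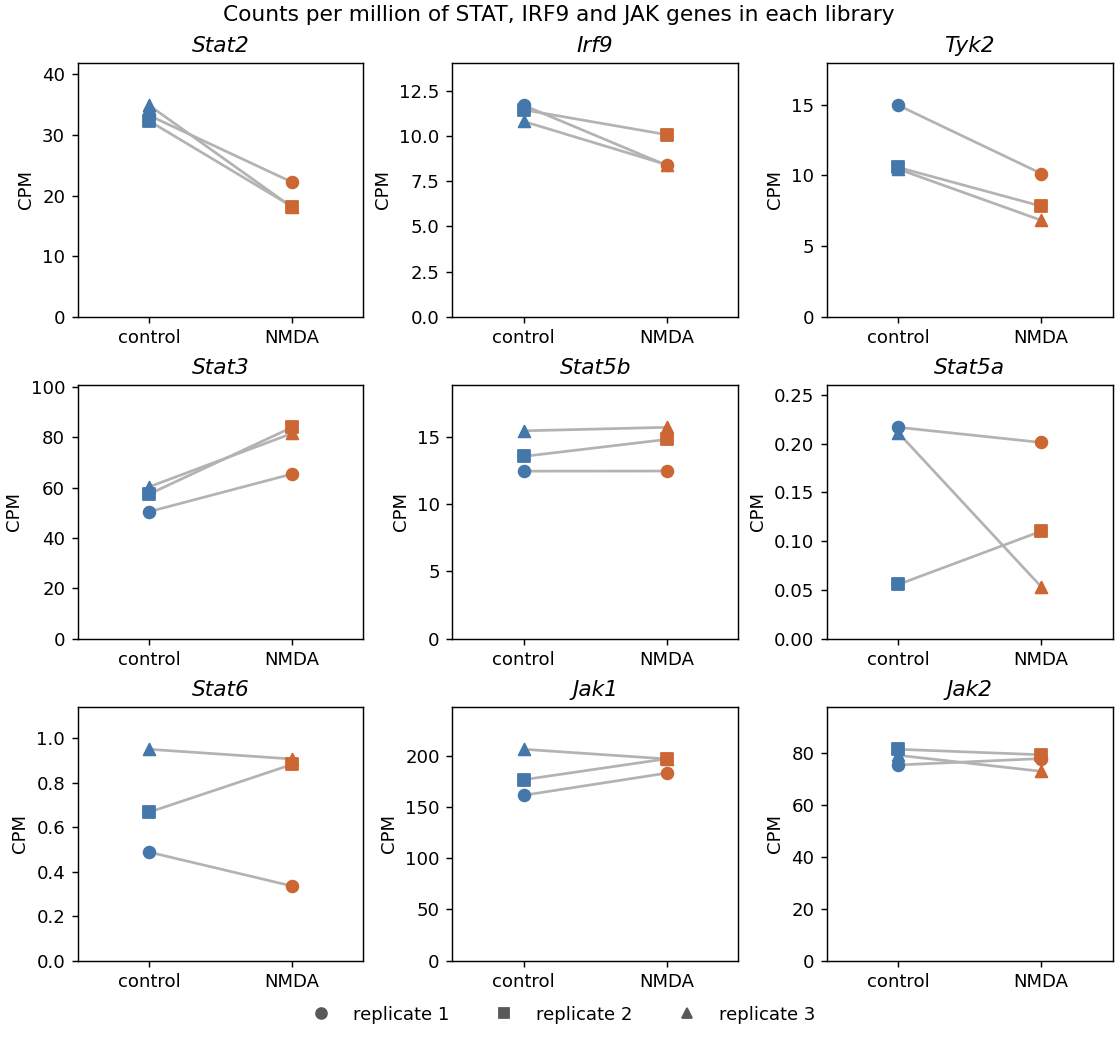
CPM (vertical axes, from 0, a scale for each gene) of the 9 genes in control (blue) and NMDA (orange) libraries, with a marker shape for each replicate number and grey lines joining libraries of the same number. Stat2, Irf9 and Tyk2 lines all slope down and Stat3 lines all slope up, while the other 5 genes have overlapping groups.

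Of the partners of STAT2, Tyk2 fell within pairs and Irf9 lay lower without passing. Tyk2, the kinase bound to the interferon receptor, was at 14.9, 10.6 and 10.4 CPM in control replicates 1, 2 and 3 and at 10.1, 7.82 and 6.82 CPM in NMDA replicates 1, 2 and 3. Every NMDA library was below every control, but by little, since NMDA replicate 1 lay just under control replicate 3 and the replicate 1 library was the highest of each group. Without the block the log2 change was -0.54 ± 0.20 (edgeR adjusted p = 0.283). With the replicate number as a block it was -0.54 ± 0.12 (edgeR adjusted p = 0.00502), and the pair differences were -0.56, -0.43 and -0.61. The same block in DESeq2 gave an adjusted p of 0.0602. Without both replicate 1 libraries the blocked Tyk2 change was -0.51 (edgeR adjusted p = 0.0128), and without control replicate 1 alone the unblocked change was -0.35. Oligodendrocyte markers were also highest in the replicate 1 libraries. Their summed level differed by log2 -0.04, 0.05 and 0.34 in pairs 1, 2 and 3, and their part in the Tyk2 difference was not tested. Tyk2 (ENSMUSG00000032175; chromosome 9, 21104068 to 21131243) shares 554 of its 6865 exonic bases with the antisense gene 1700084C06Rik, which had 19 counts in all 6 libraries together.

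Irf9, which gives ISGF3 its DNA sequence preference, was at 11.7, 11.4 and 10.8 CPM in control replicates 1, 2 and 3 and at 8.38, 10.1 and 8.42 CPM in NMDA replicates 1, 2 and 3. The groups did not overlap, although NMDA replicate 2 came near control replicate 3. The log2 difference was -0.34 ± 0.14 (edgeR adjusted p = 0.328), and -0.34 ± 0.12 with the block (edgeR adjusted p = 0.0686). In the 18 other settings, all refits of these same libraries, the difference ran from -0.43 to -0.26 and passed in 0 of them. Its constant sign there is only described. Irf9 (ENSMUSG00000002325; chromosome 14, 55603571 to 55610030) shares 123 of 5386 exonic bases with Rnf31 on the same strand, a ubiquitin ligase gene that stood at -0.29 ± 0.14 (edgeR adjusted p = 0.395). Reads in the shared bases cannot be told apart.

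The 2 chains of the type I interferon receptor, named here after their values were seen, were at -0.07 ± 0.08 for Ifnar1 and -0.03 ± 0.18 for Ifnar2, and neither passed in either fit.

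Stat3 moved the other way. It was at 50.5, 57.5 and 60.3 CPM in control replicates 1, 2 and 3 and at 65.5, 84.0 and 81.6 CPM in NMDA replicates 1, 2 and 3. All NMDA libraries were above all controls, and replicate 1 was the lowest of each group. The log2 change was 0.46 ± 0.12 without the block (edgeR adjusted p = 0.158) and 0.45 ± 0.07 with it (edgeR adjusted p = 0.000271), with pair differences of 0.37, 0.55 and 0.43. It also passed in DESeq2 without the block (adjusted p = 0.0288). Without NMDA replicate 1 the unblocked change was 0.57 and passed (edgeR adjusted p = 0.0358). That omission also raised the calls over all tested genes, from 55 higher and 8 lower to 89 and 57. With any other library left out the unblocked Stat3 change did not pass (edgeR adjusted p from 0.157 to 0.602). Stat3 (ENSMUSG00000004040; chromosome 11, 100885098 to 100939540) shares 72 of 9527 exonic bases with Stat5a on the other strand, which had 15 counts in all.

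Markers of astrocytes, which also express Stat3, moved with it: their summed level differed by log2 0.15, 0.36 and 0.32 in pairs 1, 2 and 3, and 8 of 11 tested markers rose within pairs and 0 fell, against 5.65% and 8.35% of all tested genes. Gjb6 was the one astrocyte marker at 0 in any library. Endothelial and mural markers differed by 0.39, 0.83 and 0.33, with Cldn5 at 0 throughout. Of the 8 tested, 2 (Tagln and Acta2) passed as higher within pairs and 0 as lower, while 1 lay wholly below the controls. Neuron markers differed by 0.02, -0.04 and -0.14, with 4 of 15 (Rbfox3, Tubb3, Nefl and Nefm) passing as higher within pairs. Cdh5 was at 0 in some libraries. The part of these cell types in the Stat3 difference was not tested.

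Stat5b, in the same cluster on chromosome 11 as Stat3 with Stat5a between them, had nearly equal levels in the groups. It was at 12.5, 13.6 and 15.5 CPM in control replicates 1, 2 and 3 and at 12.5, 14.8 and 15.7 CPM in NMDA replicates 1, 2 and 3. Libraries of the same number were nearly equal, and the log2 change was 0.05 ± 0.14 (edgeR adjusted p = 0.895; 0.79 with the block). The ratio of Stat3 to Stat5b counts, which no scaling of the libraries alters, was 4.05, 4.24 and 3.90 in control and 5.25, 5.67 and 5.19 in NMDA replicates 1, 2 and 3. These did not overlap (mean log2 difference 0.40, two-sided exact permutation p = 0.1, the smallest that 3 against 3 allows, and 0.15 adjusted over 3 ratios). The ratio of Irf9 to Jak1 had the same p and also separated the groups (mean log2 difference -0.43). The ratio of Tyk2 to Jak1 did not separate them (-0.63, exact p = 0.2, adjusted 0.2). It was 0.0925, 0.0597 and 0.0506 in control and 0.0553, 0.0397 and 0.0346 in NMDA replicates 1, 2 and 3. Each NMDA value lay below the control of its number, and the permutation test does not use pairs.

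Stat5a and Stat6 were near the limit of detection. Stat5a had 4, 1 and 4 counts in control and 3, 2 and 1 in NMDA replicates 1, 2 and 3, too few for a fold change. It is a close copy of Stat5b, and how reads that match both genes were counted is not known here. Stat6 had 9, 12 and 18 counts in control and 5, 16 and 17 in NMDA replicates 1, 2 and 3. Its groups overlapped throughout and the log2 change was 0.04 ± 0.45 (edgeR adjusted p = 0.981). Stat6 shares 40 of its 4402 exonic bases with Nab2 on the opposite strand, an EGR corepressor gene named here after its values were seen, which rose from 6.99 to 12.7 CPM (edgeR adjusted p = 0.049). Of other genes of these families, Jak3 had 17 to 28 counts per library (-0.17 ± 0.31, edgeR adjusted p = 0.847) and Stat4 had 1 to 3.

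Jak1 and Jak2, the kinases used by most cytokine receptors, did not pass in any fit. Jak1 was at 161.6, 176.8 and 206.5 CPM in control and 183.2, 197.2 and 197.1 CPM in NMDA replicates 1, 2 and 3. The NMDA values lay inside the control range, with a log2 change of 0.08 ± 0.10 (edgeR adjusted p = 0.76; 0.479 with the block). Jak2 was at 75.3, 81.4 and 79.1 CPM in control and 77.8, 79.3 and 72.9 CPM in NMDA replicates 1, 2 and 3. Its log2 change was -0.04 ± 0.08 (edgeR adjusted p = 0.875; 0.779 with the block). These were the most deeply counted members together with Stat3, with 20090 and 8321 counts over the 6 libraries.

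**Figure D2:**
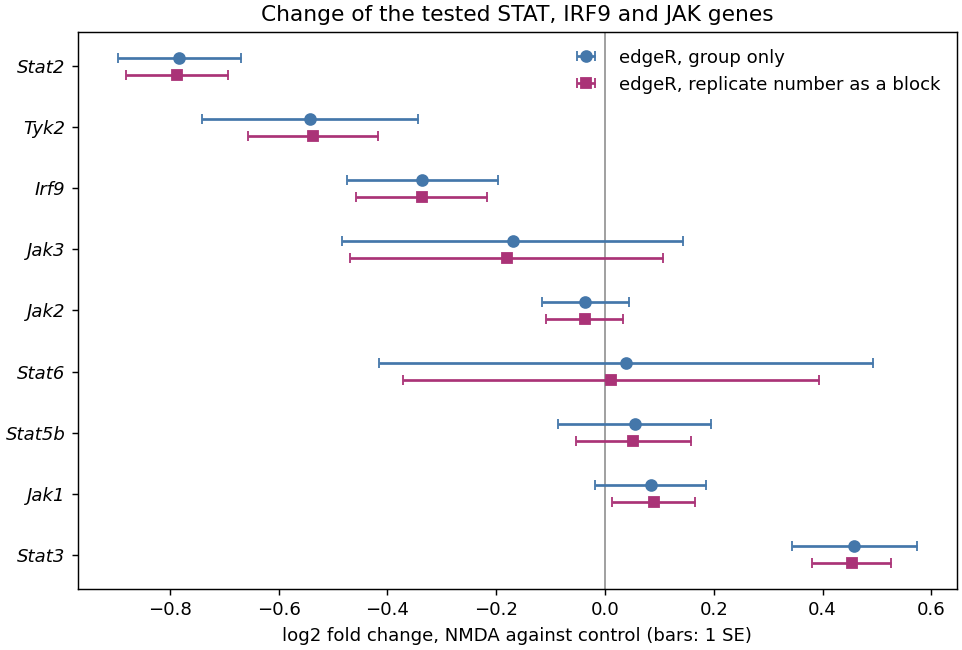
Log2 fold change of NMDA against control (horizontal axis) for the 8 tested members and for Jak3, from edgeR with group as the only term (circles) and with the replicate number as a block (squares), with bars of 1 SE. Stat2, Tyk2 and Irf9 lie lowest, at -0.78, -0.54 and -0.34, Stat3 lies highest at 0.46, and the bars of the other 5 genes without the block cross 0.

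Counted over the 8 tested members without the block, 1 was called lower, Stat2, and 0 higher, against 0.0546% of all tested genes called lower and 0.376% called higher at an edgeR adjusted p under 0.05. At an unadjusted p under 0.05 there were 4, against 13.7% of all tested genes. DESeq2 called 1 lower and 1 higher, against 1.07% and 1.02%. With the block 2 were lower and 1 higher, against backgrounds of 8.35% and 5.65%. Irf9, Stat2 and Tyk2 lay wholly below the controls and Stat3 wholly above them, which held for 11.1% and 8.18% of tested genes. In all 3 pairs NMDA was lower for those 3 genes and higher for Stat3 and Stat5b, which held for 25.7% and 22.5% of tested genes. The Stat2 call was lost when any 1 control library, or NMDA replicate 2 or 3, was left out. Stat2 was in the set because it falls in this contrast, so nothing is read from these shares.

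Per length the kinases Jak1 and Jak2 were the most abundant members. In control libraries the level per kilobase of exon was 25.1 ± 3.16 CPM for Jak1 and 15.6 ± 0.605 CPM for Jak2 (SD, n = 3). Stat3 followed at 5.89 ± 0.532 and Stat2 at 5.65 ± 0.220 CPM per kilobase, whose libraries overlapped. Stat5b was at 2.50 ± 0.274, Irf9 at 2.10 ± 0.0850 and Tyk2 at 1.75 ± 0.374 CPM per kilobase. Irf9 and Tyk2 overlapped, and Stat5b lay above Irf9 in every library. Stat6 at 0.159 ± 0.0529 and Stat5a at 0.0226 ± 0.0128 CPM per kilobase came last. In NMDA libraries Stat3 and Stat2 no longer overlapped, at 8.08 ± 1.06 and 3.29 ± 0.397 CPM per kilobase. With the length of the longest transcript in place of all exons, the control mean of Irf9 (2.93) stood above that of Stat5b (2.65). Their control libraries overlapped, at 2.795 to 3.024 for Irf9 and 2.39 to 2.965 for Stat5b. On that length Stat3 (9.29 ± 0.839) and Stat2 (7.61 ± 0.296) no longer overlapped in control.

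**Figure D3:**
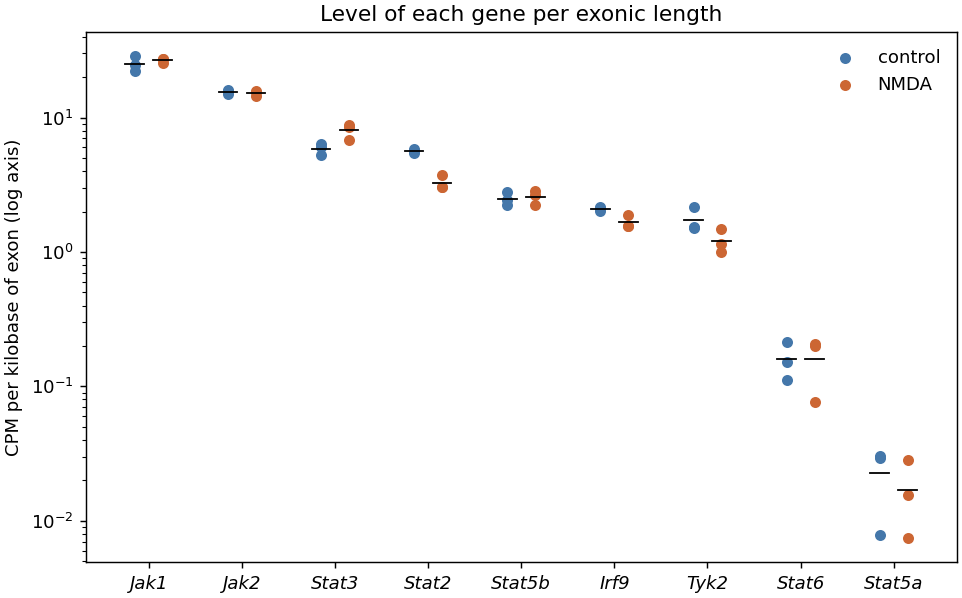
CPM per kilobase of exon (vertical log axis) of the 9 genes in each control (blue) and NMDA (orange) library, ordered by control mean, with bars at the group means. Jak1 and Jak2 lead at 25.1 and 15.6 in control, Stat3 and Stat2 overlap in control and lie apart in NMDA on this length, and Stat5a is lowest at 0.0226.

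Upstream of the kinases, the ligands were barely measured. Of 31 cytokine and interferon genes, found in 32 rows because Clcf1 has 2, 5 rows were tested and 13 had no count in any library, among them Ifnb1, Ifna4, Osm and Il10. None passed without the block (1 at an unadjusted edgeR p under 0.05, 0 by DESeq2 or limma-voom). For this and the lists below, the share of all tested genes at that unadjusted p was 13.7%. Within pairs 1 of the 5 fell and 0 rose, against 8.35% and 5.65% of all tested genes. Thpo, which encodes thrombopoietin, fell from 0.866 ± 0.192 to 0.291 ± 0.282 CPM (-1.64 ± 0.49, edgeR adjusted p = 0.0298). At no more than 20 counts in any library, its unblocked change went from -1.63 to -2.61 without NMDA replicate 1, and the paired call was lost without replicate 2 (adjusted p = 0.156) or 3 (0.0678) of both groups. Clcf1, a ligand of the CNTF receptor, and Il4, which encodes interleukin-4, were at 0.25 ± 0.42 and -0.06 ± 0.15 and did not pass in either fit.

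Of 36 receptor chains that signal through JAKs, 20 were tested and none passed without the block in edgeR with the low-count filter or in limma-voom (3 at an unadjusted edgeR p under 0.05, and 1 by DESeq2 and by edgeR without the filter). Within pairs 2 of the 20 rose and 1 fell, against 5.65% and 8.35% of all tested genes. Osmr, the oncostatin M receptor, was at 5.96, 6.06 and 7.65 CPM in control and 9.59, 12.7 and 10.8 CPM in NMDA replicates 1, 2 and 3, with no overlap (log2 0.75 ± 0.14 with the block, edgeR adjusted p = 0.000998), and it is the gene called without the block by DESeq2 (adjusted p = 0.0143) and by edgeR without the filter (adjusted p = 0.0215). Cntfr, the CNTF receptor, rose from 22.6 ± 1.92 to 29.1 ± 4.28 CPM (0.36 ± 0.09 within pairs, edgeR adjusted p = 0.0115). That call was lost with the block in DESeq2 (adjusted p = 0.0678) and without replicate 2 or 3 of both groups (0.0557 and 0.101). Both receptors signal to STAT3. Csf2ra, a chain of the GM-CSF receptor, fell (-0.69 ± 0.13 within pairs) from 9.54 ± 2.89 to 5.88 ± 1.37 CPM. Ifngr1, a chain of the interferon-gamma receptor, was at 0.30 ± 0.16 and did not pass. The median log2 change was -0.05 over the 20 and -0.01 over all tested genes.

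Among the brakes of the pathway 1 gene rose within pairs, of 24 tested, below the 5.65% of all tested genes. Of 27 negative regulators, 24 were tested, none passed without the block in edgeR or limma-voom (1 at an unadjusted edgeR p under 0.05), and the median was -0.01. Socs3, which STAT3 induces and which blocks JAK activity, was at 2.38, 1.61 and 1.79 CPM in control and 3.35, 4.30 and 3.94 CPM in NMDA replicates 1, 2 and 3. It was about 2-fold higher without overlap, passed within pairs (log2 1.01 ± 0.22, edgeR adjusted p = 0.00406), and DESeq2 called it without the block (adjusted p = 0.049). Ptpn11 (0.15 ± 0.08), Ptprd (-0.19 ± 0.11) and Dusp3 (0.16 ± 0.09), phosphatase genes with the next smallest p, did not pass in either fit.

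Among targets listed for STAT3 and STAT5, the transcription factor genes Klf4 and Cebpd rose without the block. Of 35, 32 were tested. The fit without the block called 2 of the 32 higher and 0 lower (all tested genes: 0.376% and 0.0546%), the paired fit 11 higher and 1 lower (all tested genes: 5.65% and 8.35%). The median log2 change was 0.25. The 2 were Klf4, from 1.33 ± 0.382 to 6.40 ± 0.568 CPM (log2 2.26 ± 0.25, edgeR adjusted p = 0.00419), and Cebpd, from 1.03 ± 0.119 to 5.08 ± 1.57 CPM (2.30 ± 0.29, adjusted p = 0.00624), which no longer passed once control replicate 2 was left out (adjusted p = 0.0512). Within pairs Ccnd1, a G1 cyclin (0.48), Ccnd3 (0.54), Mcl1, a survival factor (0.38), and Myc (0.41) had the next smallest p there, and Mcl1 no longer passed without replicate 2 of both groups (adjusted p = 0.0574). The list holds Gfap, Vim and Aqp4, which astrocytes express and which are named after their values were seen. These rose within pairs too (0.29, 0.34 and 0.32), beside the astrocyte markers described above. None of them passed without the block, and each paired call was lost without replicate 2 of both groups (edgeR adjusted p = 0.056, 0.486 and 0.282).

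Of 62 interferon-stimulated genes, the class that ISGF3 controls, 46 were tested, and without the block none passed in edgeR, DESeq2 or limma-voom (1 at an unadjusted edgeR p under 0.05). The paired fit called 4 of the 46 higher and 1 lower, against 5.65% and 8.35% of all tested genes, and the median log2 change was 0.15. Ifit2, an antiviral RNA-binding protein gene, was at 13.5, 17.2 and 19.7 CPM in control and 16.8, 23.0 and 23.2 CPM in NMDA replicates 1, 2 and 3 (0.32 ± 0.10 within pairs, edgeR adjusted p = 0.0321). Ifitm2 (0.45), B2m (0.27) and Lgals3bp (0.62) were the others that rose within pairs in edgeR. With the block in DESeq2 none of these 4 passed (adjusted p = 0.168, 0.125, 0.148 and 0.259 for Ifit2, Ifitm2, B2m and Lgals3bp). In the paired edgeR fit B2m was also lost without any 1 pair. Ifit2 and Ifitm2 were lost there without replicate 2 of both groups (edgeR adjusted p = 0.273 and 0.155), and Lgals3bp without replicate 3 (0.34). Dhx58, a helicase of the RNA sensor family, fell from 0.956 ± 0.172 to 0.393 ± 0.177 CPM (-1.26 ± 0.41 within pairs, edgeR adjusted p = 0.0421), at no more than 20 counts in any library. Its call was lost without any 1 pair, with adjusted p from 0.0819 to 0.142. Gbp7 (0.39 ± 0.20) and Gbp3 (0.53 ± 0.28) did not pass. The summed level was 413 to 479 CPM in control and 417 to 528 CPM in NMDA libraries (two-sided exact permutation p = 0.5). Within pairs 1, 2 and 3 that sum differed by log2 0.02, 0.16 and 0.07, beside the larger differences of astrocyte and of endothelial and mural markers given above, whose part in it was not tested.

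Among 11 genes of the interferon regulatory factor (IRF) family and its binding proteins, other than Irf9, 6 were tested. Without the block edgeR called 1 higher and DESeq2 called 2, against 0.376% and 1.02% of all tested genes. Within pairs edgeR called 2 higher, against 5.65%, and 0 were called lower in any of these fits. The called genes were all among the binding proteins. Irf2bp2, a corepressor that binds IRF2, was at 21.0, 25.35 and 25.2 CPM in control and 35.7, 36.2 and 41.1 CPM in NMDA replicates 1, 2 and 3 (log2 0.66 ± 0.11, edgeR adjusted p = 0.042). Its groups were well apart, but the call was lost without any 1 of the 3 controls or of NMDA replicates 2 and 3, with edgeR adjusted p from 0.0894 to 0.206. Its relative Irf2bpl rose within pairs (0.40 ± 0.07, adjusted p = 0.000891). Irf1, itself a STAT target (0.56 ± 0.26), and Irf2bp1 (0.26 ± 0.14) did not pass. Of 25 tested coactivators and transport factors of STATs none passed without the block in edgeR with the low-count filter, DESeq2 or limma-voom (3 at an unadjusted edgeR p under 0.05), and Ncoa3 passed in edgeR without that filter (adjusted p = 0.0457). Within pairs 2 of the 25 fell, near the 8.35% of all tested genes, the steroid receptor coactivator Ncoa3 (-0.48 ± 0.09) and the nuclear exporter Xpo1 (-0.30 ± 0.07), which was lost without replicate 2 of both groups (adjusted p = 0.122), while Smarca4 (0.19 ± 0.08) and Hdac3 (-0.21 ± 0.10) did not pass.

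**Figure D4:**
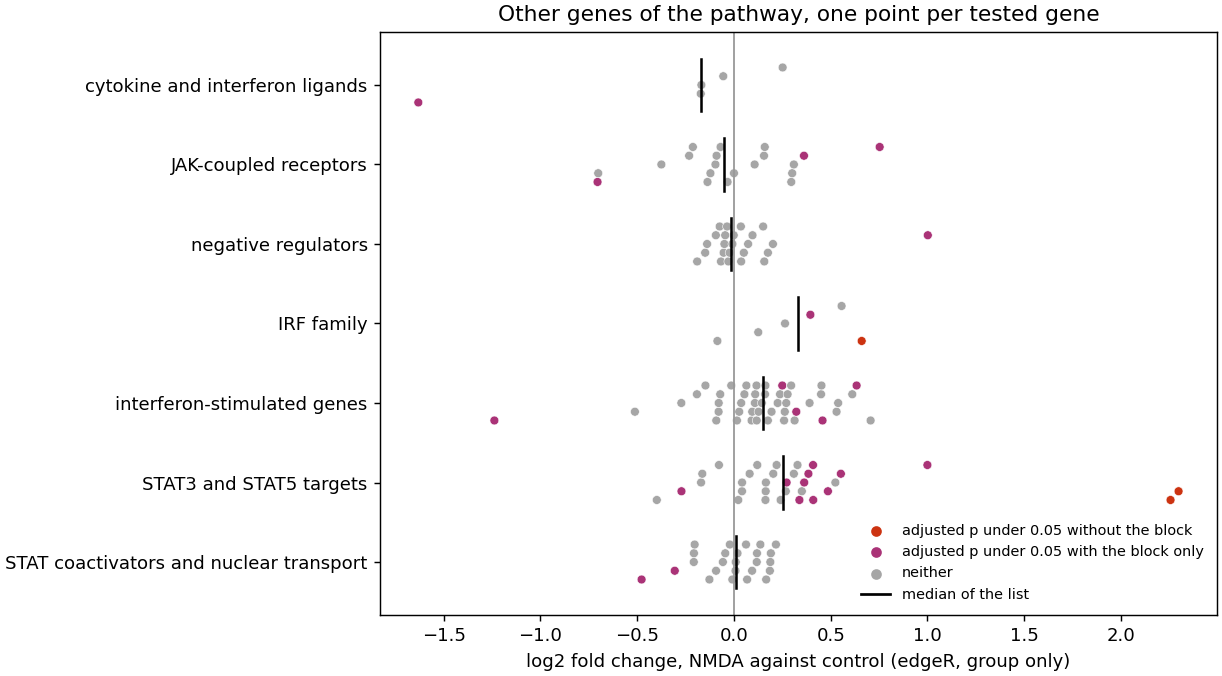
Log2 fold change of NMDA against control from edgeR without the block (horizontal axis), 1 point per tested gene in each of 7 lists, with black lines at the medians. Red points passed without the block (Irf2bp2, Klf4 and Cebpd), purple points passed with the block only, and grey points in neither. The list medians run from -0.17 for ligands to 0.33 for the IRF family list. That list includes the binding-protein genes Irf2bp2, Irf2bpl and Irf2bp1.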

How the data were processed

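The authors deposited 1 table of raw read counts per Ensembl gene, with mouse symbols. The submitters' processing notes name GRCm38.p6 and mm10 as builds, and HTSeq, TopHat and Trimmomatic as tools. For tool versions, annotation and strand setting nothing was given in the sources used here. Members and lists were chosen with earlier results of these data known. Counts were tested with edgeR 4.0.16 in R 4.3.3 on the whole table (filter with minimum count 10 and total 15, TMM, robust quasi-likelihood F test, Benjamini-Hochberg, threshold 0.05), with group as the only term. CPM use TMM-scaled library sizes. Positions, exonic lengths and overlaps come from GENCODE M21 on GRCm38, promoters from RefSeq.

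Same-numbered libraries deviated together from their group means (correlations 0.54, 0.38 and 0.49, each above 0.1). On that basis replicate numbers count as pairs, a pairing found in the data and not stated by the labels. The fit with the replicate block is given where it changes a call. Alternatives used DESeq2 1.42.0, limma 3.58.1 and mgcv 1.9.3. The scripts were tested on simulated data.

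Text names all members, 4 genes of smallest p per list, all genes called without the block, up to 6 called with it, the neighbours of Stat2 and the genes most like it; some genes under this rule are not reported here.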

Additional observations from a re-analysis of the deposited data

How the results depend on the processing

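Stat2 was chosen because it falls in this contrast, so its sign over refits of the same libraries is only described. It stayed lower in all 18 other settings, from -0.88 to -0.69 on the log2 scale. Its call was lost when any 1 library other than NMDA replicate 1 was left out. With 1 library out, 0 to 1 members were called lower and 0 to 1 higher. With the replicate block 2 were lower and 1 higher, also with GC content and length offsets, which were added after seeing the data, as were the next settings. The block in DESeq2 gave 1 higher and 1 lower, without Tyk2, and the block without both libraries of 1 number gave 2 lower and 1 higher for each number. No low-count filter and DESeq2 without the block each gave 1 higher. With 1 library out Stat5b ran from -0.015 to 0.154, Jak2 from -0.066 to 0.014 and Stat6 from -0.165 to 0.355. Stat5b turned to -0.015 without control replicate 1 and -0.002 without NMDA replicate 3. Jak2 turned to 0.014 without NMDA replicate 3 and to 0.017 in the block without replicate 3. Stat6 turned to -0.017 in limma-voom, -0.165, -0.136 and -0.156 without control replicate 1, NMDA replicate 2 and NMDA replicate 3, -0.009 with block and offsets, -0.023 with the block in DESeq2 and -0.213 in the block without replicate 2; at 5 to 18 counts its sign is not fixed.

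With the replicate block, list calls moved to 1 lower for ligands, 2 higher and 1 lower for receptors, and 1 higher for negative regulators. It gave 2 higher for the IRF family list, both of them binding-protein genes. For interferon-stimulated genes it gave 4 higher and 1 lower, for STAT3 and STAT5 targets 11 higher and 1 lower, and for coactivators 2 lower. DESeq2 gave 1 higher for receptors and for negative regulators, 2 for the IRF family and 4 for targets. No filter gave 1 higher for receptors, 2 for the IRF family and 1 lower for coactivators. With 1 library out, 0 to 1 IRF family genes and 1 to 4 targets were higher. Over all genes the block called 828 higher and 1223 lower, and 1045 and 1010 with the offsets; the cause of this turn was not tested.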

Other observations

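The genes whose profile over the 6 libraries lay nearest to that of Stat2, among 12763 ranked genes (mean log2 CPM no lower than 1), were Gm12258, Kcnb2, Slitrk3, Plcxd3 and Zfp40. Likeness was the root mean square distance between log2 CPM profiles, each centred on its own mean, and ran from 0.0597 for Gm12258 to 0.106 for Zfp40. Their changes lay between -0.78 ± 0.12 for Gm12258 and -0.63 ± 0.12 for Slitrk3, a transmembrane protein of synapses. Kcnb2 is a voltage-gated potassium channel subunit and Zfp40 a zinc finger protein, and Plcxd3 (-0.77 ± 0.18) is related to phospholipase C. By the same measure Tyk2 was the nearest member, at 0.231 (rank 360), followed by Irf9 at 0.280 (rank 936), and Stat3 was the farthest ranked, at 0.656 (rank 12126). The distance includes the group difference, for which Stat2 was chosen, so these ranks are a description of 6 libraries.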
